A study of Homo sapiens with 6 samples.

Results

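Aminoacyl-tRNA synthetases join each amino acid to its matching tRNA, and so supply the charged tRNAs that ribosomes read. Most cells carry one set of these enzymes for the cytosol and another, encoded in the nucleus and imported, for the mitochondria. Several cytosolic enzymes sit together in a multisynthetase complex held by the scaffold proteins AIMP1, AIMP2 and EEF1E1. Many cytosolic synthetase genes are known targets of ATF4, the transcription factor that cells make when amino acids run short, and of related C/EBP-ATF dimers. RNA polymerase II was followed here over 35 synthetase genes, 19 of the cytosolic set (symbols ending in 1, or FARSA and FARSB) and 16 of the mitochondrial set (symbols ending in 2), among 20136 annotated protein-coding genes. GARS1 and KARS1 also make the mitochondrial forms of their enzymes and were kept with the cytosolic set. The members were the listed peaks that overlap these genes or lie within 1 kb of any of their start sites. There were 125 such peaks of 28968 in siME2+αKG, 96 of 29201 in siME2 and 138 of 31710 in siCtrl.

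The study used SK-Hep1, an established human line derived from a liver adenocarcinoma, and measured RNA polymerase II by chromatin immunoprecipitation and sequencing (ChIP-seq). The 3 groups were cells with siRNA against malic enzyme 2 (ME2, which turns malate into pyruvate in mitochondria) and added α-ketoglutarate (siME2+αKG), cells with the ME2 siRNA alone (siME2) and cells with control siRNA (siCtrl). All were grown in the same serum-containing medium, and the length of the knockdown and the dose of α-ketoglutarate are not given in the sources used here. The 6 samples are 1 ChIP library and its input from each condition, so no difference below has a replicate check and no p-value between conditions is given. The titles give the siCtrl and siME2 libraries the same replicate number and the siME2+αKG library none. By number, the siME2+αKG library cannot be matched to the others. An siRNA acts on the transcript, so polymerase at the ME2 gene checks nothing about the knockdown.

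Once duplicates had been filtered out by the authors, 12955596 ChIP tags were left in siME2+αKG, 10445326 in siME2 and 13006504 in siCtrl. None of the 10 hepatocyte marker genes, ALB and HNF4A among them, had a promoter peak in any list. Of the 10 annotated genes among 11 endothelial and mesenchymal markers, 4, 4 and 5 had one in siME2+αKG, siME2 and siCtrl. VIM, CDH2 and FN1 had one in every list. CDH5, VWF, KDR, COL1A1 and COL1A2 had none in any list, THY1 had none in siME2 and S100A4 had none in siME2+αKG.

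Matches to TGATGNAA, the core of the element that C/EBP-ATF dimers bind, lay in the promoters of 8 of 19 cytosolic genes and 1 of 16 mitochondrial genes. Over all 19856 annotated promoters of the same length, from 250 bases before to 50 bases after the canonical start site, 2.49% held a match on either strand. The 30 bases around each match are shown because they are the sequence feature in which the 2 sets differ most among the 4 motifs searched. Each is on the strand of its gene in hg19, 5′ to 3′, with the match in capitals. A match on the opposite strand reads as its reverse complement.
AARS1: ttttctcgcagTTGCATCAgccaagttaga
CARS1: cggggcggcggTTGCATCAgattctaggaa
GARS1: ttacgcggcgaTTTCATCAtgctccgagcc
IARS1: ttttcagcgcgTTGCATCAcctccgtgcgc
MARS1: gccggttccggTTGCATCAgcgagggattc
NARS1: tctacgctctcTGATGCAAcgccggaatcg
TARS1: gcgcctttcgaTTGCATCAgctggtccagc
YARS1: ccgagcccagcTGATGCAAcctggctggac
YARS2: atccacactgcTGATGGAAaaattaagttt
Positions are counted from the canonical start site, negative upstream. In 7 of the 8 cytosolic genes the match began between -33 and 14. In AARS1 it began at -187, and in YARS2 at -197. The sites lie at chr16:70323578-70323607 (AARS1, minus strand), chr11:3078637-3078666 (CARS1, minus), chr7:30634450-30634479 (GARS1, plus), chr9:95055974-95056003 (IARS1, minus) and chr12:57881836-57881865 (MARS1, plus). The others lie at chr18:55289036-55289065 (NARS1, minus), chr5:33441062-33441091 (TARS1, plus), chr1:33282938-33282967 (YARS1, minus) and chr12:32909010-32909039 (YARS2, minus). The NRF1 motif was found in 3 of 19 cytosolic promoters (FARSB, SARS1 and TARS1) and in 4 of 16 mitochondrial ones (IARS2, MARS2, PARS2 and VARS2), beside 8.43% of all promoters. The YY1 motif AAGATGGCG was found in 3 cytosolic promoters (FARSA, KARS1 and NARS1) and 2 mitochondrial ones (WARS2 and YARS2), beside 2.85% of all. The E-box CACGTG was found in 2 of each set (IARS1 and VARS1, EARS2 and MARS2), beside 8.77% of all. No match overlapped a match to another of these motifs. A match is only a string of letters and was not tested as a binding site.

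**Figure D1:**
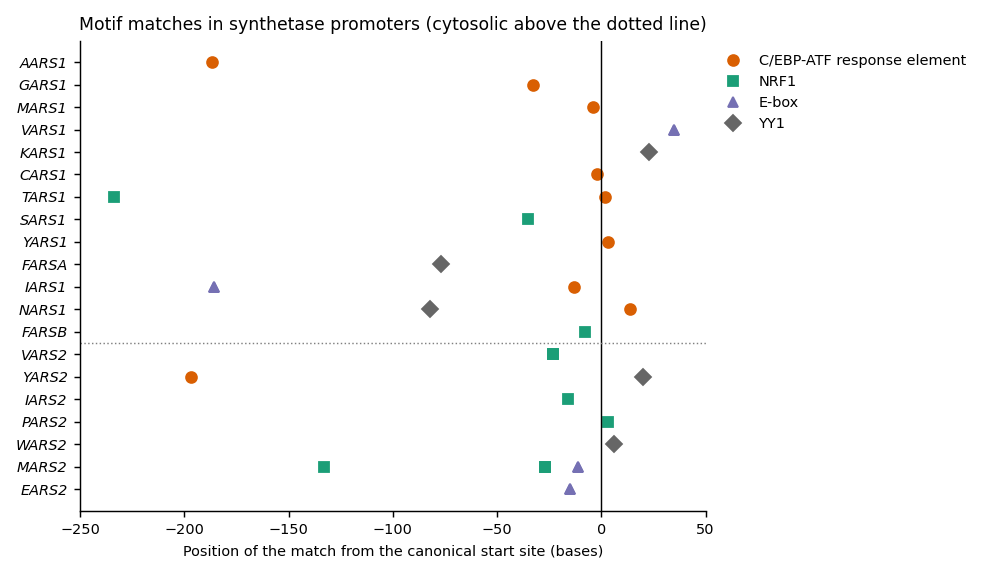
Position of each motif match, in bases from the canonical start site, in the 20 synthetase promoters that held any of the 4 motifs. Cytosolic genes are above the dotted line. The C/EBP-ATF matches of 7 cytosolic genes lie between -33 and 14, and those of AARS1 and YARS2 lie further upstream.

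Every one of the 35 genes had an RNA polymerase II peak at a promoter in all 3 lists. Over all protein-coding genes the share with a promoter peak was 60.9% in siME2+αKG, 61.5% in siME2 and 63.0% in siCtrl, and 59.5% had one in all 3. The height of a promoter was taken as the number of ChIP fragments over its highest summit within 1 kb of any annotated start site, per 1000000 filtered tags. The median height of the 19 cytosolic genes was 5.09 in siME2+αKG, 4.69 in siME2 and 5.23 in siCtrl. The 16 mitochondrial genes had medians of 4.90, 4.45 and 4.65 in the same order, and all protein-coding genes with a promoter summit had 4.01, 4.21 and 4.31. Cytosolic promoter peaks were the wider, with median widths of 1431, 1176 and 1330 bp, against 828.5, 785 and 1022.5 bp for the mitochondrial genes. Over all genes these widths were 1061, 1004 and 1185 bp. Summits lay downstream of the canonical start site in 14, 14 and 16 of 19 cytosolic genes and in 12 of 16 mitochondrial genes in each library. In a bulk library, polymerase on fewer cells and less polymerase on each cell cannot be told apart.

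**Figure D2:**
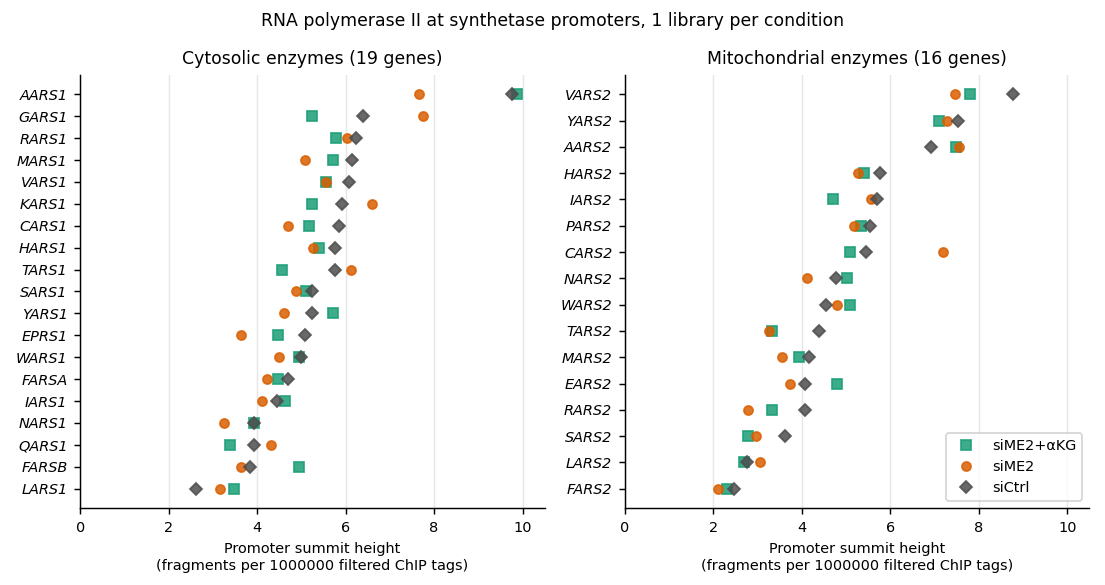
Promoter summit height, in fragments per 1000000 filtered ChIP tags, of each synthetase gene in siME2+αKG, siME2 and siCtrl (1 library each), ordered by the siCtrl value within the cytosolic and the mitochondrial set. AARS1 is the highest of all in siME2+αKG (9.88) and siCtrl (9.76), and GARS1 and AARS1 lead in siME2 (7.75 and 7.66). FARS2 is the lowest in all 3 (2.32, 2.11 and 2.46).

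AARS1, the alanine enzyme, had the highest siCtrl promoter of either set. Its summit held 128 fragments in siME2+αKG, 80 in siME2 and 127 in siCtrl, or heights of 9.88, 7.66 and 9.76. Those heights stood at the 99.4th, 95.2nd and 98.9th percentile of all promoters with a summit in each library. GARS1, the glycine enzyme, followed among the cytosolic genes with 68, 81 and 83 fragments. RARS1, which charges arginine in the multisynthetase complex, had 75, 63 and 81. MARS1, the methionine enzyme of the same complex, had 74, 53 and 80. At the low end, LARS1, the leucine enzyme, had 45, 33 and 34 fragments, and FARSB, a subunit of the phenylalanine enzyme, had 64, 38 and 50. The asparagine enzyme NARS1 had 51, 34 and 51 fragments and the glutamine enzyme QARS1 had 44, 45 and 51, so these neighbours in the order held the same number in siCtrl. The other phenylalanine subunit, FARSA, stood higher than FARSB in siME2 and siCtrl, with 58, 44 and 61 fragments, and lower than it in siME2+αKG. All fragment counts in this and later sentences are given in the order siME2+αKG, siME2, siCtrl.

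Among the mitochondrial genes, VARS2, the valine enzyme, was the highest in siCtrl, with 101 fragments in siME2+αKG, 78 in siME2 and 114 in siCtrl. The tyrosine enzyme YARS2 had 92, 76 and 98, and the alanine enzyme AARS2 had 97, 79 and 90. In siME2+αKG and siCtrl these 3 stood above every cytosolic gene but AARS1, and in siME2 they stood above every cytosolic gene but GARS1 and AARS1. The phenylalanine enzyme FARS2 was the lowest, with 30, 22 and 32 fragments. LARS2, for leucine, had 35, 32 and 36, and SARS2, for serine, had 36, 31 and 47. The members not named here lay between these ends in siCtrl.

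Several synthetase promoters are shared with another gene, and a peak there cannot be assigned to either. The histidine enzymes HARS1 (cytosolic) and HARS2 (mitochondrial) stand head to head, with canonical start sites 85 bp apart, and had 1 summit in common. It held 70, 55 and 75 fragments and lay 180, 154 and 78 bp inside HARS1. The 84 bases between the canonical start sites, chr5:140070956-140071039 on the plus strand of hg19, are shown because they hold the only promoter that serves both sets.
HARS1-HARS2: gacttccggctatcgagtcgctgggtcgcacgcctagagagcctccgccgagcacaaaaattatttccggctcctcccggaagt
This summit was left out of the sums of each set, which then held 18 cytosolic and 15 mitochondrial genes. It was kept in the medians of both sets and in their counts of ratios below 0. KARS1, the lysine enzyme, starts 108 bp from TERF2IP, a telomere protein gene. Its highest summit, with 68, 69 and 77 fragments, lay on the TERF2IP side of the KARS1 start in siME2+αKG and siME2 and inside KARS1 in siCtrl. YARS1, the tyrosine enzyme, starts 295 bp from S100PBP. Its summit, with 74, 48 and 68 fragments, lay at -705 and -650 bp from the canonical start site in siME2+αKG and siME2 and 185 bp inside the gene in siCtrl. The highest summit of WARS1, the tryptophan enzyme, lay at -809, -836 and -788 bp from its canonical start site, towards WDR25, with 64, 47 and 65 fragments.

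On the mitochondrial side, EARS2 (glutamate) starts 377 bp from UBFD1, FARS2 563 bp from LYRM4, RARS2 (arginine) 148 bp from ORC3 and SARS2 181 bp from MRPS12, a mitochondrial ribosomal protein gene. The highest EARS2 summit, with 62, 39 and 53 fragments, lay upstream of the canonical start site in siME2+αKG and siCtrl and inside the gene in siME2. The RARS2 summit had 43, 29 and 53 fragments and lay inside the gene in all 3 libraries. The SARS2 summit lay on the MRPS12 side in all 3. The FARS2 summit lay upstream of the canonical start site in all 3, at -986, -648 and -920 bp. CARS2, the mitochondrial cysteine enzyme, has an annotated start site upstream, near ING1, and in siME2 its highest summit lay there, with 75 fragments, at -6215 bp from the canonical start site. At the canonical start site CARS2 had 66, 55 and 71 fragments. Of the 35 genes, 25 had no start site of another protein-coding gene within 1 kb of their canonical start site. WARS1 (1071 bp) and CARS2 (6620 bp) are among the 25. The WARS1 summits and the siME2 summit of CARS2 lay upstream, so the 25 are not all free of peaks near another gene. Genes outside the 25 include AARS1 and MARS1, whose canonical start sites lay 157 and 658 bp from an annotated start site of another protein-coding gene. A peak at these promoters may belong to either gene.

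The effect of the ME2 siRNA was read from the ratio of heights, siME2 over siCtrl. No synthetase gene passed a 1.5-fold difference in either direction, where 3.15% of 11992 promoters were 1.5-fold or more lower in siME2 and 1.49% were as much higher. The median log2 ratio was -0.13 over the 19 cytosolic genes, -0.13 over the 16 mitochondrial genes and -0.04 over all promoters. Ratios were below 0 for 14 of 19 cytosolic and 12 of 16 mitochondrial genes, and for 56.5% of all promoters. Summed over distinct summits, the cytosolic genes held 938 fragments in siME2 and 1250 in siCtrl, a log2 ratio of -0.10 per tag (95% interval -0.22 to 0.03). The mitochondrial genes held 737 and 972, a log2 ratio of -0.08 (-0.22 to 0.06). All 35 genes together held 1730 and 2297, a log2 ratio of -0.09 whose interval (-0.18 to -0.002) lay just below 0, beside the median of -0.04 over all promoters. The cytosolic ratio minus the mitochondrial ratio was -0.01 on the log2 scale (-0.20 to 0.17). These intervals are exact binomial (Clopper-Pearson) ones, or exact ones for the odds ratio where 2 sets are compared. They cover the error of counting alone, so they set 1 library against another and say nothing of the conditions' own spread.

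The lowest single ratio in that comparison was that of the arginine enzyme RARS2, with heights of 2.78 in siME2 and 4.07 in siCtrl and a log2 ratio of -0.55 (-1.26 to 0.13). EPRS1, which charges both glutamate and proline, had 3.64 and 5.07, a log2 ratio of -0.48 (-1.10 to 0.12). AARS1 had 7.66 in siME2 and 9.76 in siCtrl, a log2 ratio of -0.35 (-0.77 to 0.07). GARS1 stood on the other side, with 7.75 in siME2 and 6.38 in siCtrl and a log2 ratio of 0.28 (-0.18 to 0.74). CARS2 had the highest ratio, 0.40 (-0.09 to 0.88), from the upstream summit. At its canonical start site alone the ratio was -0.05. Each of these intervals spanned 0, and so did those of all other members, where 1.55% of all promoters had an interval below 0 and 0.625% one above it.

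Heights in siME2+αKG were then set against siME2, which asks whether α-ketoglutarate changed polymerase at these genes in knockdown cells. The siME2 library stands in this comparison and in the one above, so their values are not independent. No synthetase gene passed 1.5-fold, beside 4.42% of 11821 promoters lower and 1.4% higher in siME2+αKG. The median log2 ratio was 0.13 over the cytosolic genes, 0.04 over the mitochondrial genes and -0.08 over all promoters. Ratios were below 0 for 5 of 19 cytosolic and 6 of 16 mitochondrial genes, and for 63.1% of all promoters. The summed cytosolic ratio was 0.04 (-0.09 to 0.16), from 1195 fragments in siME2+αKG and 938 in siME2. The summed mitochondrial ratio was 0.005 (-0.14 to 0.15), from 917 and 737 fragments, and the difference between the sets was 0.03 (-0.16 to 0.22).

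GARS1 was the only member whose counting interval left out 0 in any of the 3 comparisons. Its height was 5.25 in siME2+αKG and 7.75 in siME2, a log2 ratio of -0.56 (-1.05 to -0.08). Over all promoters in that comparison, 2.7% had an interval below 0 and 0.491% one above 0. The largest ratios upward were those of FARSB, at 0.44 (-0.16 to 1.06), and AARS1, at 0.37 (-0.05 to 0.79). FARSB had heights of 4.94 in siME2+αKG and 3.64 in siME2. TARS1, the threonine enzyme, had 4.55 and 6.13, a log2 ratio of -0.43 (-0.96 to 0.11). GARS1 and TARS1 both held a TGATGNAA match, as AARS1 did, so genes with a match lay on either side of 0.

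Against siCtrl, heights in siME2+αKG were again within 1.5-fold for every member, beside 4.42% of 11896 promoters lower and 0.731% higher. The median log2 ratio was -0.09 over the cytosolic genes, -0.09 over the mitochondrial genes and -0.13 over all promoters. That cytosolic median was the ratio at the summit that HARS1 shares with HARS2. Ratios were below 0 for 13 of 19 cytosolic and 12 of 16 mitochondrial genes, and for 70.1% of all promoters. The summed ratios were -0.06 (-0.17 to 0.06) and -0.08 (-0.21 to 0.05), and the cytosolic ratio minus the mitochondrial ratio was 0.02 (-0.16 to 0.20). No member's interval left out 0, beside 3.09% of all promoters with an interval below 0 and 0.193% with one above it. LARS1 had the highest ratio, with heights of 3.47 in siME2+αKG and 2.61 in siCtrl and a log2 ratio of 0.41 (-0.27 to 1.10). TARS2, the mitochondrial threonine enzyme, had the lowest, with 3.32 and 4.38 and a log2 ratio of -0.40 (-1.01 to 0.20).

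**Figure D3:**
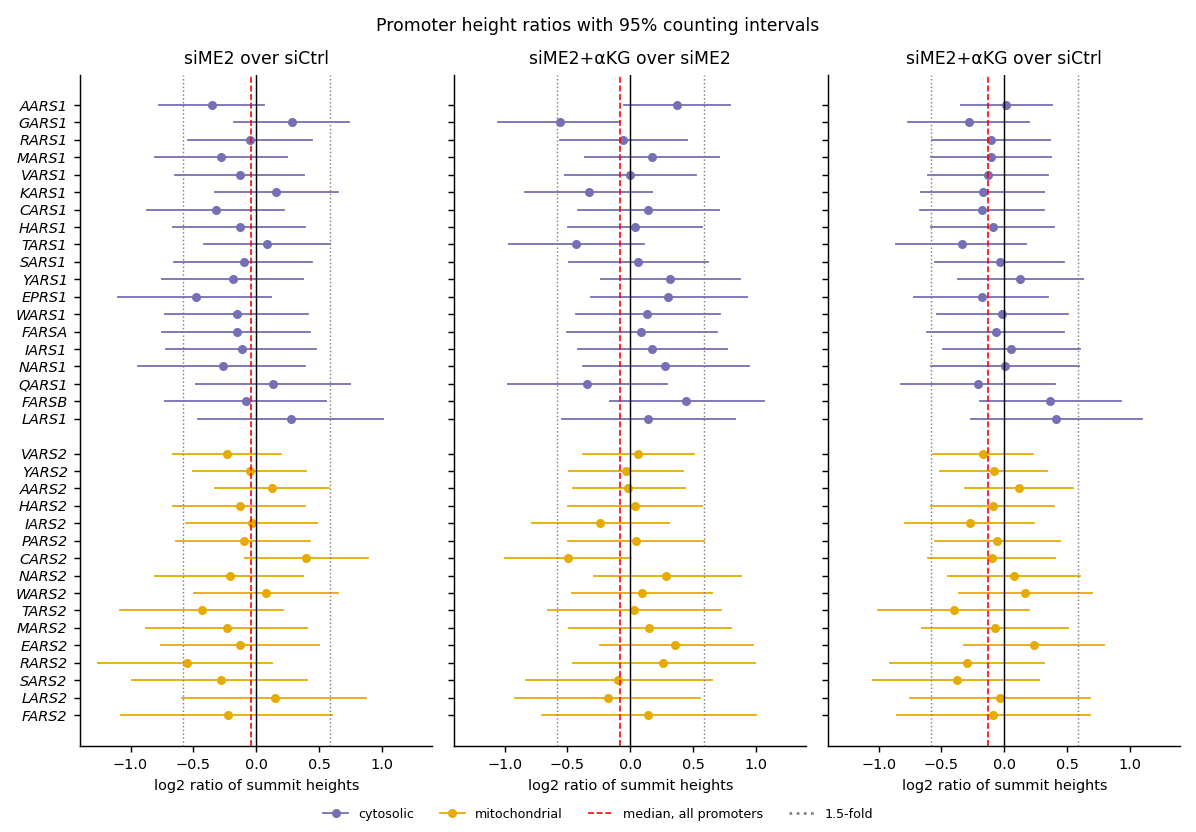
log2 ratio of promoter heights for each synthetase gene in the 3 comparisons, with exact 95% counting intervals, 1 library per condition. The dashed line is the median of all promoters (-0.04, -0.08 and -0.13 from left to right) and the dotted lines mark 1.5-fold. No point passes the dotted lines, and only the GARS1 interval in siME2+αKG over siME2 leaves out 0.

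The 8 cytosolic genes with a TGATGNAA match were described apart from the other 11. In siME2 over siCtrl their median log2 ratio was -0.23, with 6 of 8 below 0, against -0.10 and 8 of 11 for the cytosolic genes without a match. The 152 promoters of all genes that held the motif and had a summit in both lists had a median of -0.08. In siME2+αKG over siME2 the medians were 0.17 with the match, 0.06 without it and -0.06 over 150 promoters of all genes with the motif. In siME2+αKG over siCtrl they were -0.05, -0.09 and -0.13. The summed ratios of the 8 genes were -0.13 (-0.31 to 0.04), 0.05 (-0.13 to 0.23) and -0.08 (-0.25 to 0.08) in these comparisons, and each interval spanned 0.

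Polymerase beyond the promoter was read from peaks whose summit lay over the canonical transcript, more than 1 kb past its start and more than 1 kb from the canonical start of any other gene. The cytosolic genes held 66 such peaks in siME2+αKG, 42 in siME2 and 79 in siCtrl. The mitochondrial genes held 11, 6 and 9. Over 11669 protein-coding genes with a promoter summit in all 3 lists the counts were 8646, 8292 and 10221. The siME2 count was thus 0.53 of the siCtrl count over the cytosolic genes and 0.81 of it over all genes. The siME2+αKG count was 1.57 times the siME2 count over the cytosolic genes and 1.04 times it over all genes. The length under the cytosolic peaks was 36836 bp in siME2+αKG, 20505 bp in siME2 and 51066 bp in siCtrl. Over all genes it was 5985767, 5191428 and 6765215 bp, so the siME2 length was 0.40 of the siCtrl length over the cytosolic genes and 0.77 of it over all genes.

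Of 11 cytosolic genes with a gene-body peak in siME2 or siCtrl, 10 had fewer in siME2 and 1 had the same number, where 47.9% of 4122 genes had fewer. Both mitochondrial genes with any had fewer. Of 13 cytosolic genes with one in siME2+αKG or siME2, 10 had more in siME2+αKG, 2 had the same number and 1 had fewer, where 38.9% of 3950 genes had more. Between siME2+αKG and siCtrl, 6 of 14 had fewer in siME2+αKG, 4 had the same number and 4 had more, where 45.2% of 4164 genes had fewer. Again the siME2 library is part of the first 2 of these counts.

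The peaks were gathered on few genes. CARS1, the cytosolic cysteine enzyme, held 17 in siME2+αKG, 12 in siME2 and 16 in siCtrl, and AARS1 held 16, 14 and 18. IARS1, the isoleucine enzyme of the multisynthetase complex, held 3, 1 and 11. YARS1 held 10, 4 and 10, and MARS1 held 9, 7 and 11. These 5 genes all carry the TGATGNAA match. The 8 genes with it held 56, 39 and 69 of the cytosolic peaks, and the 11 without it held 10, 3 and 10. The siME2 count was 0.57 of the siCtrl count in cytosolic genes with the match and 0.30 of it in those without. Over all 148 protein-coding genes with the match, those 8 included, the counts were 130, 100 and 165. SARS1, the serine enzyme, held 3, 0 and 3 peaks and HARS1 held 2, 0 and 2, so in siME2 neither had any. VARS1, the valine enzyme, held 2, 2 and 3, and GARS1 held 0, 1 and 3. CARS2 held 9, 6 and 8 of the mitochondrial peaks, and the other mitochondrial genes held at most 1.

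**Figure D4:**
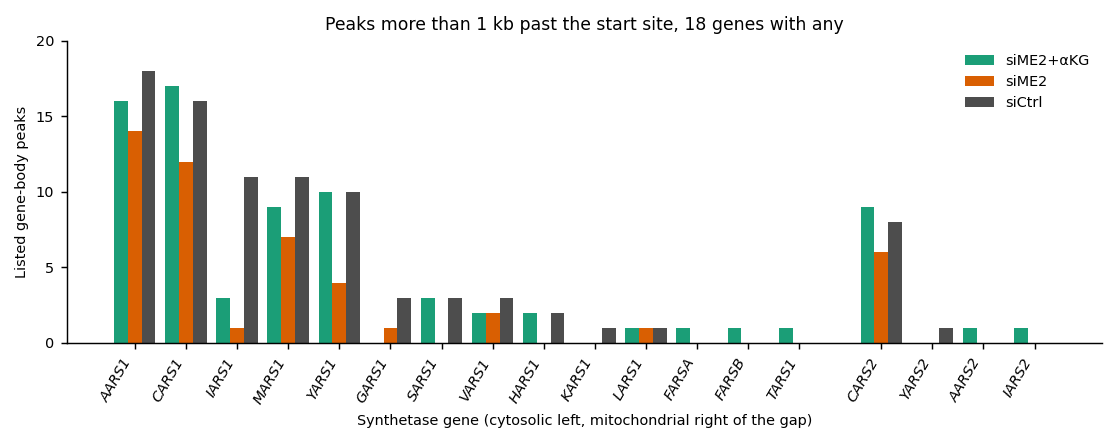
Number of listed peaks with a summit more than 1 kb past the canonical start site, for each synthetase gene that had any, in siME2+αKG, siME2 and siCtrl (1 library each). IARS1 has 3, 1 and 11 in that order. Of the 11 cytosolic genes with a bar in siME2 or siCtrl, 10 have a lower one in siME2.

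Gene-body peaks covered the largest shares in MARS1 and AARS1. The length of those over MARS1 came to 29.2% of the canonical transcript in siME2+αKG, 15.9% in siME2 and 48.5% in siCtrl. For AARS1 the shares were 28.5%, 20.9% and 40.9%. VARS1 had 6.96%, 3.11% and 14.1%, and YARS1 had 11.3%, 3.18% and 8.63%. The libraries differed less in CARS1, with 13.1%, 9.59% and 14.0%, and in CARS2, with 9.97%, 8.68% and 9.66%. The siCtrl share was the highest of the 3 in MARS1, AARS1, VARS1 and CARS1, and the siME2+αKG share was the highest in YARS1 and CARS2.

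**Figure D5:**
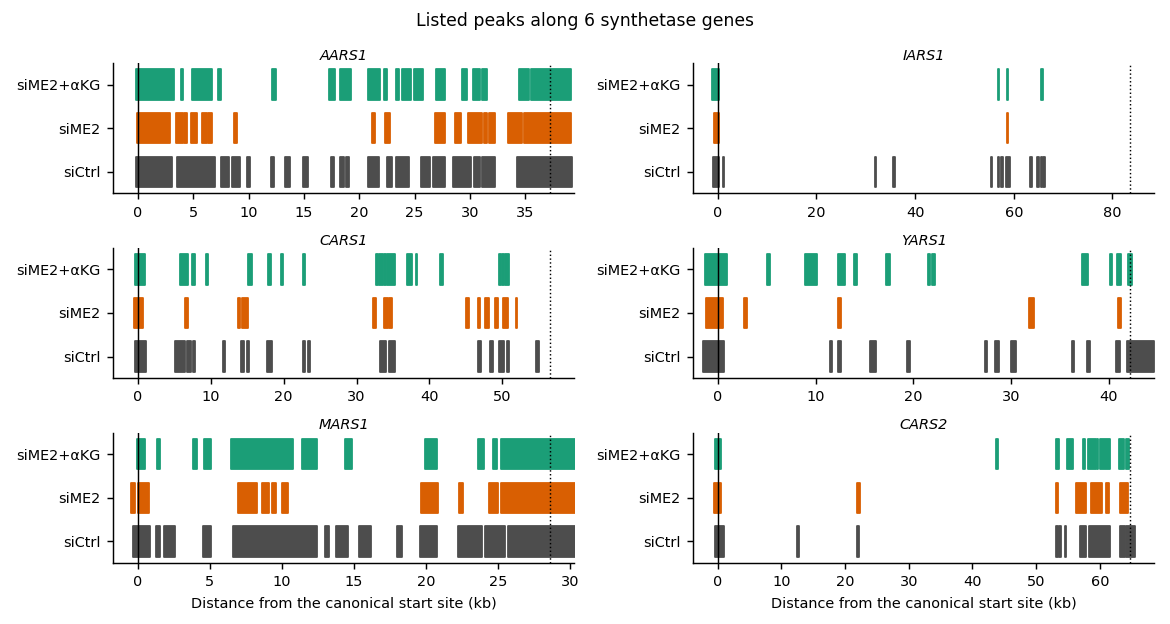
Listed peaks (blocks) along 6 synthetase genes, by distance from the canonical start site in kb, in siME2+αKG, siME2 and siCtrl from top to bottom of each panel. The solid line is the start site and the dotted line the end of the canonical transcript. The block across the end of AARS1 has its summit near the start of EXOSC6, and was not counted as a gene-body peak. IARS1 shows more blocks in siCtrl than in siME2, and the CARS2 blocks lie mostly in the last part of the gene.

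Most of these gene-body peaks were low. Those of the cytosolic genes had 9 to 32 fragments in siME2+αKG, 8 to 19 in siME2 and 8 to 28 in siCtrl, with medians of 14.5, 12 and 14, where the lowest summit of any listed peak had 8, 7 and 8. The siME2 library had the fewest tags. When each peak was required to pass the same p-value threshold at the depth of siME2, the cytosolic counts were 64, 42 and 75 and those over all genes 8503, 8292 and 9512. Among summits of at least 1.5 fragments per 1000000 tags, the cytosolic genes held 6, 9 and 8, and all genes held 2208, 2506 and 1986. The siME2 count was then 1.13 times the siCtrl count over the cytosolic genes and 1.26 times it over all genes, so neither was lower in siME2. The share of the differences that comes from the quality of each library was not tested. The lists give no strand, and gene-body peaks were not screened against the ends of other genes. A gene-body peak near another gene may therefore belong to that gene.

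Genes that work beside the synthetases were read in the same way. The scaffold genes of the multisynthetase complex, AIMP1, AIMP2 and EEF1E1, had median log2 ratios of -0.09 in siME2 over siCtrl and -0.05 in siME2+αKG over siME2. The 7 enzymes of that complex in the member list had medians of -0.05 and 0.14. GATB, GATC and QRSL1, which make the mitochondrial amidotransferase that turns glutamate on tRNA into glutamine, had -0.29 and 0.03. None of these 13 genes passed 1.5-fold in any comparison. The scaffold genes held 0, 0 and 4 gene-body peaks in siME2+αKG, siME2 and siCtrl, beside 8646, 8292 and 10221 over all genes. The 4 lay on 1 gene, and 2 of them had −log10 q of at least 5.

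Among 6 genes of proofreading and related tRNA charging, the median log2 ratios were -0.05 in siME2 over siCtrl and -0.27 in siME2+αKG over siME2. DTD2, which removes wrongly joined amino acids from tRNA, had 57 fragments in siME2+αKG, 70 in siME2 and 74 in siCtrl. Its siME2+αKG over siME2 ratio was -0.61 (-1.14 to -0.08), past 1.5-fold. Of all promoters in that comparison, 4.42% were 1.5-fold or more lower and 2.7% had an interval below 0. The 7 genes of tRNA end processing had medians of -0.06 and -0.27, with none past 1.5-fold. Of 10 elongation factor genes, which bring charged tRNA to the ribosome or move it along, EEF1A2 had no promoter peak in siME2+αKG and 16 and 23 fragments in siME2 and siCtrl. GFM1, a mitochondrial elongation factor, had 31, 37 and 47 fragments and a siME2+αKG over siCtrl ratio of -0.59 (-1.30 to 0.09). EEF1D, a subunit of the factor that recharges EEF1A1, had 55, 56 and 80 fragments and a ratio of -0.53 (-1.06 to -0.02) in that comparison. There, 4.42% of all promoters were 1.5-fold or more lower and 3.09% had an interval below 0. The elongation factor genes with a promoter summit in all 3 lists held 17, 7 and 21 gene-body peaks. These lay on 4, 3 and 2 genes, and the counts over all genes were 8646, 8292 and 10221.

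The amino acid response genes, known as ATF4, its upstream kinases and its targets, had a median log2 ratio of -0.19 in siME2 over siCtrl over 21 genes, with 16 below 0. In siME2+αKG over siME2 the median was -0.07, with 13 of 21 below 0. ATF4 itself had 92, 87 and 109 fragments. DDIT3, a stress transcription factor gene just past the end of MARS1, had 131, 91 and 129 fragments. ASNS, which makes asparagine, had 79, 72 and 112 fragments and a siME2+αKG over siCtrl ratio of -0.50 (-0.93 to -0.07). VLDLR, a lipoprotein receptor gene, had 17, 20 and 36 fragments and a siME2+αKG over siCtrl ratio of -1.08 (-2.00 to -0.21). ASNS and VLDLR were the only 2 of the 21 genes with an interval below 0 there, beside 3.09% of all promoters. EIF2AK3, a kinase upstream of ATF4, had 49, 59 and 69 fragments and a siME2+αKG over siME2 ratio of -0.58 (-1.16 to -0.007), with summits 717 bp apart in those lists. In siME2+αKG over siME2, 1 of the 21 genes had an interval below 0, beside 2.7% of all promoters. PSAT1, an enzyme of serine synthesis, had no promoter peak in any list. The gene-body peaks of the 21 genes numbered 66, 64 and 59. The length under them was 45377 bp in siME2+αKG, 37959 bp in siME2 and 64441 bp in siCtrl. The siME2 length was thus 0.59 of the siCtrl length, beside 0.77 over all genes, although the count was not lower.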

How the data were processed

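RNA polymerase II ChIP-seq was analysed in 3 ChIP libraries of SK-Hep1 cells. Per the submitters' processing notes, the build was hg19 and the tools were Bowtie2 2.3.5.1 and MACS2 2.2.6. MACS 2.2.7.1 stands in the headers of the files. A list was made from 1 ChIP library and its own input, per the file headers, with a p-value threshold of 1e-05 and 1 tag kept per position. The deposited pileup is a signal, the number of extended fragments over the summit, which the authors scaled down by 0.900 in siME2+αKG only. It was divided by that factor to give whole fragments. The deposited fold enrichment is a ratio over the local input background. The deposited −log10 p and −log10 q values were used only to filter peaks. Estimated fragment lengths were 221, 201 and 211 bp in siME2+αKG, siME2 and siCtrl.

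Autosomal and X and Y peaks were joined to GENCODE release 44 on GRCh37 with Python 3.11.15 and SciPy 1.17.1. The window was 1 kb around any annotated start site, and ratios are per filtered ChIP tag. Intervals cover counting error only. The interval method was tested on simulated independent counts, which follow the model it assumes, so the test says nothing of other error. The members, the partner and marker lists and the motifs were chosen with earlier results of these data known, and the gene-body counts were added after the data were seen. Values are given in full for the 4 highest and lowest members of each set in siCtrl (a tie for the fourth place keeps both), for members past the 1.5-fold rule or with an interval leaving out 0, and for those sharing a promoter. Other members and partner genes named for a high or low ratio were chosen after their values were seen. Alternatives changed the window, peak threshold, scaling, background, fragment length, start sites and shared promoters. The input samples entered only through the peak caller.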

Additional observations from a re-analysis of the deposited data

How the results depend on the processing

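No paired analysis was possible because each condition has 1 ChIP library and the groups share fewer than 2 replicate numbers. Of 906 values for single members under the alternatives, 905 moved by less than their counting interval. The exception was CARS2 in siME2+αKG over siME2, at 0.046 with a window of 2 kb, where the window takes another summit. The GARS1 ratio in that comparison ran from -0.70 to -0.48. A value that keeps within its interval can still change sign. CARS2 in siME2 over siCtrl did so, from 0.40 to -0.05 with the canonical start site only. Counts of members with a promoter peak, or with one overlapped in another list, stayed within 1.5-fold in 12 of 12 alternatives. That outcome was nearly fixed in advance, because every member had a peak and a wider window can only keep it. The lowest −log10 q at a member's highest promoter summit was 15.7 (FARS2 in siME2), so a filter at 5 could remove none. Some summed ratios and differences changed sign. The summed mitochondrial ratio of siME2+αKG over siCtrl went from -0.08 to 0.05 when set against the median of all promoters. Still, 79 of 81 summed ratios and differences kept within their counting interval. The stricter peak threshold changed none of them, so it adds nothing to that count. The summed cytosolic ratio of siME2+αKG over siME2 was -0.10 when heights were divided by fragment length. Set against the median of all promoters, the summed cytosolic ratio was 0.069 in siME2+αKG over siCtrl. Members 1.5-fold or more lower in siME2+αKG over siME2 numbered 1 with the local background subtracted (CARS2, at -0.63). They numbered 2 with heights divided by fragment length (GARS1 at -0.70 and CARS2 at -0.63). The CARS2 ratio sets 2 summits 6409 bp apart against each other, and with the canonical start site only it was -0.05. The gene-body counts and their alternatives were chosen after seeing the data. With summits of at least 1.5 fragments per 1000000 tags the cytosolic counts were 6, 9 and 8 in siME2+αKG, siME2 and siCtrl and the mitochondrial counts 1, 3 and 1, beside 2208, 2506 and 1986 over all genes. With −log10 q of at least 5 the mitochondrial count in siME2+αKG was 7. With no summit within 1 kb of any annotated start site the mitochondrial counts in siME2+αKG and siME2 were 7 and 3. The cause of these shifts was not tested beyond what each alternative changes.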
